A study of Mus musculus with 10 samples.

Results

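The interferon receptors and the signalling chain behind them were followed through 9 genes in mouse lung: the receptor chains Ifnar1, Ifnar2, Ifngr1 and Ifngr2, the kinases Jak1 and Tyk2, the transcription factor Stat2, and the inhibitors Socs1 and Socs3. They were taken by gene name from the 54532 genes of the deposited expression table, and each name was found in 1 row. The study asked what increased pulmonary flow (IPF) in newborn mice does to the lung. The lungs were those of C57BL/6J wild-type mice, and all mice had a midline laparotomy at postnatal day 7. In the IPF group (5 samples) the abdominal aorta was punctured through into the inferior vena cava to leave an aortocaval fistula, which sends arterial blood back to the right heart and lungs. The sham group (5 samples) had the same operation without the puncture. Whole lungs were taken at postnatal day 30 for RNA sequencing, so the values are those of the mixed tissue and of a fistula that had been open since the operation. The labels number the samples within each group without saying that each was a separate animal, and p-values measure the spread between these samples.

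Type I interferons bind a receptor made of Ifnar1, which carries the kinase Tyk2, and Ifnar2, which carries Jak1. Interferon gamma, the type II interferon, binds a receptor made of Ifngr1, the ligand-binding chain that carries Jak1, and Ifngr2, which carries Jak2. The kinases phosphorylate STAT proteins. Stat2 joins Irf9 in a complex that binds the interferon-stimulated response element of antiviral genes, while STAT pairs bind the gamma-activated site. Many STAT targets feed back on the chain: Socs1 binds and inhibits the JAK kinases at interferon receptors, and Socs3 acts mainly on receptors that use gp130, the shared chain of the Il6 cytokine family. In the lung these pathways are best known from the response to respiratory viruses.

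The stretch just before the RefSeq start site of each gene was searched for letters of these 2 elements. The search covered 250 bases before to 50 bases after the start on both strands, in RefSeq sequence of build GRCm38.p6, and all 9 genes had a window. The gamma-activated site was searched as TTCNNNGAA, which reads the same on both strands, and the response element in the form GAAANNGAAA or its reverse complement TTTCNNTTTC. The first pattern was present in 3 of the 9 windows (Ifnar1, Ifnar2 and Socs3) and in 8.30% of all 32851 windows. The second was present in 2 of the 9 (Stat2 and Socs1) and in 3.44% of all windows. The 3 stretches below are shown because they hold a whole match and lie before both the RefSeq start and the start in the deposited table. Each is the 250 bases up to the start, 5′ to 3′ on the strand of the gene, with the matching letters in capitals.
Ifnar2, chr16:91372533-91372782, plus strand: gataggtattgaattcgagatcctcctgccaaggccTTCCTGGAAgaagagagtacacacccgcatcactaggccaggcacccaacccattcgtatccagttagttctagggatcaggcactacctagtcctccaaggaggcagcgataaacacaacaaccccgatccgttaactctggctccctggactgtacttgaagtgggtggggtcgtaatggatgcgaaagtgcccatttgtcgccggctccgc
Stat2, chr10:128270248-128270497, plus strand: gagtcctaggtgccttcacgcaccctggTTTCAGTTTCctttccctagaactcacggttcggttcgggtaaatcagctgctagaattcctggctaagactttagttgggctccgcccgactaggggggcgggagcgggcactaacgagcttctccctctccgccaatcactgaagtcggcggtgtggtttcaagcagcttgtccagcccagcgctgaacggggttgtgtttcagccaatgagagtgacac
Socs1, chr16:10785537-10785786, minus strand: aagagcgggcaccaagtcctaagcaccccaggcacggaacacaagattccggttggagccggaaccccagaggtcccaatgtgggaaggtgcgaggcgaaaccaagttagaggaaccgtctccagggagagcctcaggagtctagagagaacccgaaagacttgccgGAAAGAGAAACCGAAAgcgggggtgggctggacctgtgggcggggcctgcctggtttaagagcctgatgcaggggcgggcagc
In the Socs1 stretch 2 matches of the response element overlap, at positions -83 to -74 and -77 to -68 from the start. The Ifnar2 match lay at -214 to -206 and the Stat2 match at -222 to -213. The Socs3 match, TTCTTAGAA, lay at -154 to -146 from a RefSeq start that is 681 bases from the start in the deposited table, and the Ifnar1 match, TTCACGGAA, spanned the start from -5 to 4. No match was found in the windows of Ifngr1, Ifngr2, Jak1 and Tyk2. A match describes letters only and was not tested as a binding site.

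Values are FPKM, fragments scaled to gene length and to the mapped fragments of each library, so levels of different genes can be set side by side. The reads behind them, recovered from the steps between values, summed to 16250190 to 19026843 per IPF sample and 15483046 to 17818542 per sham sample. Sham replicate 1 stood apart from the other samples, with a mean Spearman correlation with them of 0.912 where the other 9 samples had 0.929 to 0.932. The labels do not give sex. All 5 IPF lungs carried Xist, the RNA of the inactive X chromosome, at 26.8 to 43.2 FPKM and were at 0 for 4 Y-linked genes. The sham lungs had all 4 Y-linked genes and at most 0.0767 FPKM of Xist, so operation and sex cannot be told apart in any value that follows. Lung epithelium was present in every sample: the summed FPKM of 5 alveolar type 2 markers ran from 16406 to 18520 in IPF and 12346 to 19788 in sham. Of 12 circadian clock genes 3 were higher and 8 lower in IPF, and 5 of 6 glucocorticoid-responsive genes were lower. The part of these differences in the results below was not tested.

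Of the 9 genes, 5 were higher in IPF lungs and none was lower, at an unadjusted p either: Ifnar2, Ifngr2, Stat2, Socs1 and Socs3. The other 4, Ifnar1, Ifngr1, Jak1 and Tyk2, had fold changes between 1.00 and 1.03 that did not pass. The type I and type II receptors thus each had 1 chain that passed and 1 that did not, both kinases did not pass, and both inhibitors passed. Genes were called with limma on log2(FPKM + 0.1) over the 20448 genes that averaged 0.1 FPKM or more, at an adjusted p under 0.05. By that rule 3.71% of all tested genes were higher and 2.14% lower. All 5 IPF values lay above all 5 sham values for the same 5 genes, a pattern that 4.52% of tested genes had in that direction. Socs1 alone also passed the study's second limit, a log2 fold change above 1, as did 0.680% of tested genes. The median log2 fold change of the 9 was 0.22, against 0.0016 for all tested genes. The count of 5 was unstable: with 1 sample left out it was 5 without IPF replicate 5, 4 without sham replicate 1 or 4, 3 without IPF replicate 3 or 4 or sham replicate 5, 2 without IPF replicate 1 or sham replicate 2 or 3, and 1 without IPF replicate 2. It was also 1 when limma's spread was not modelled by expression level, and Socs1 was the gene that passed in every one of these fits.

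**Figure D1:**
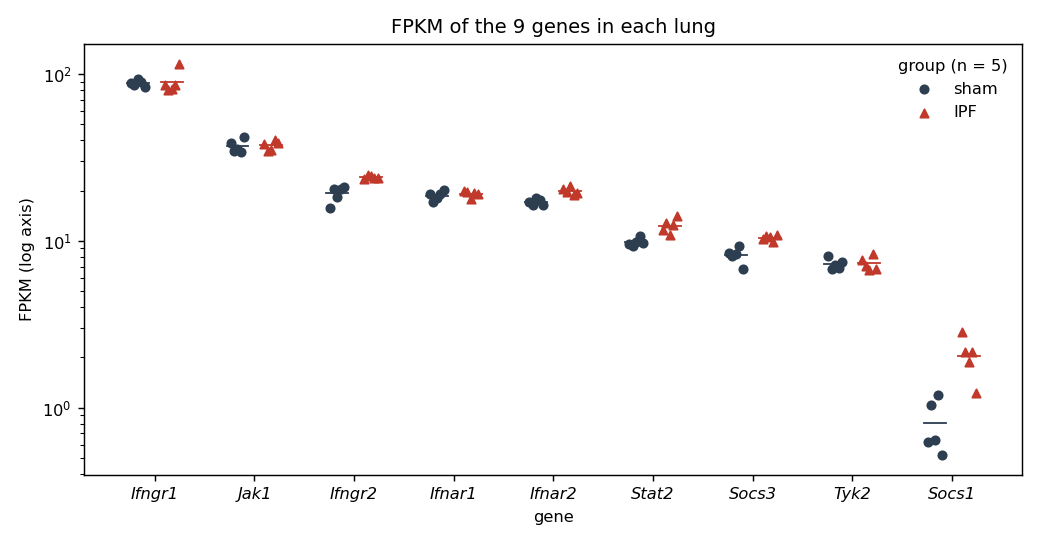
FPKM on a log axis of the 9 genes in each of the 5 sham lungs (dark circles) and 5 IPF lungs (red triangles), with a line at each group mean, ordered by sham level. The groups are apart for Ifngr2, Ifnar2, Stat2, Socs3 and Socs1, and share their range for Ifngr1, Jak1, Ifnar1 and Tyk2.

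Levels spanned about 2 orders of magnitude. In sham lungs Ifngr1 was highest at 88.1 ± 3.83 FPKM (SD, n = 5), followed by Jak1 at 36.8 ± 3.22, and neither range touched that of its neighbour in the order. Ifngr2, Ifnar1 and Ifnar2 came next at 19.2, 18.6 and 17.1 FPKM, with ranges that overlapped from each to the next. Stat2, Socs3 and Tyk2 formed a lower group of 9.82, 8.22 and 7.27 FPKM with overlapping neighbours, and Socs1 was lowest at 0.804. The order in IPF lungs differed in 1 place, since the mean of Ifnar2 (19.9 FPKM) lay above that of Ifnar1 (19.2 FPKM), with overlapping ranges. Ifngr2, at 24.0 FPKM, no longer overlapped the type I chains in IPF, and Socs3 no longer overlapped Tyk2.

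Ifnar2, the high-affinity chain of the type I receptor (ENSMUSG00000022971, chr16:91372783-91405589, plus strand), was modestly higher in IPF. Its level was 20.5, 19.7, 21.2, 18.8 and 19.2 FPKM in IPF replicates 1 to 5 and 17.2, 16.4, 18.0, 17.5 and 16.4 FPKM in sham replicates 1 to 5. The highest sham lung lay below the lowest IPF lung. The change was 0.22 on the log2 scale (SE 0.05, 95% interval 0.10 to 0.33), a fold of 1.16, with a limma adjusted p of 0.0311 on 834 to 1332 reads per sample. The adjusted p rose to between 0.0568 and 0.0801 without IPF replicate 1, 2 or 3 or without sham replicate 2, 4 or 5. The call was also lost with quantile normalization (limma adjusted p = 0.0709), with voom on recovered reads (0.0621), without a variance trend (0.0739) and without sham replicate 1 and IPF replicates 3 and 5 together (0.0806). Another protein-coding gene model, Gm21970, shares 13869 bases with Ifnar2 on the same strand, and it had 0 reads in all samples.

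Its partner Ifnar1, which carries Tyk2 (ENSMUSG00000022967, chr16:91485238-91507441, plus strand), did not pass. Ifnar1 was at 20.0, 19.5, 17.8, 19.4 and 19.1 FPKM in the IPF lungs and 18.9, 17.1, 17.9, 19.1 and 20.0 FPKM in the sham lungs. The highest value of all was a sham lung, and the groups overlapped throughout. The log2 fold change of 0.04 had an interval of -0.08 to 0.17, which leaves out a change of the size fitted for Ifnar2 (limma adjusted p = 0.730).

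Ifngr2, the signalling chain of the interferon gamma receptor (ENSMUSG00000022965, chr16:91547072-91565623, plus strand), was higher in every IPF lung. It measured 23.4, 24.7, 24.6, 23.6 and 23.8 FPKM in IPF and 15.7, 20.4, 18.4, 20.4 and 21.1 FPKM in sham. The IPF lungs were close together, the lowest value belonged to sham replicate 1, and the other 4 sham lungs also lay below the IPF range. The log2 fold change was 0.33 (SE 0.08, 95% interval 0.16 to 0.50), a fold of 1.25, and the limma adjusted p was 0.0311. When sham replicate 1 was left out the change was 0.26 and still passed (adjusted p = 0.0202). The call was lost without IPF replicate 1, 2, 3 or 4 or sham replicate 3, where the limma adjusted p was 0.0597 to 0.0774, and without a variance trend (0.0670).

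The ligand-binding chain Ifngr1 (ENSMUSG00000020009, chr10:19591949-19610229, plus strand) was by far the most abundant of the 4 receptor genes and did not pass. Its values were 85.7, 79.8, 80.9, 86.2 and 115.3 FPKM in IPF and 88.4, 85.8, 93.7, 88.9 and 83.5 FPKM in sham. IPF replicate 5 stood far above the other 9 lungs, and 2 IPF lungs lay below all of sham. On the log2 scale the change was 0.01 (interval -0.20 to 0.22, limma adjusted p = 0.966), and it was -0.08 without IPF replicate 5 (adjusted p = 0.439). Tsc22d3, a glucocorticoid-responsive gene, was lower in IPF (84.6 ± 41.0 against 162 ± 13.8 FPKM), and IPF replicate 5 was at 156 FPKM where the other IPF lungs had 53.5 to 78.2.

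Ifnar2, Ifnar1 and Ifngr2 lie on the plus strand of chromosome 16 within 192.841 kb, together with Il10rb, the chain that the lambda interferon and Il10 receptors share. Of the 12 genes in that stretch 6 were expressed enough to be tested, and Ifnar2 and Ifngr2 were the 2 that passed. Il10rb, which lies between Ifnar2 and Ifnar1, was at 14.7 ± 0.872 FPKM in IPF and 13.3 ± 1.05 in sham, a log2 fold change of 0.14 (interval -0.01 to 0.29, limma adjusted p = 0.279). The 2 genes that passed were therefore not neighbours in the stretch. The other 2 tested genes, A930006K02Rik and AC150035.2, were at 0.02 and 0.13 on the log2 scale with limma adjusted p of 0.978 and 0.950. Ifnlr1, the other chain of the lambda receptor, was at 4.02 ± 0.355 FPKM in IPF and 4.69 ± 0.861 in sham and did not pass (limma adjusted p = 0.382).

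The balance of each receptor pair was taken within each lung, together with that of the 2 inhibitors, after the levels had been seen. The ratios restate those levels and are given as a description, without p-values. The ratio of Ifnar2 to Ifnar1 was 1.04 ± 0.0847 in IPF and 0.921 ± 0.0676 in sham (SD, n = 5), a log2 difference of 0.18. In 4 of 5 IPF lungs it exceeded every sham lung. The ratio of Ifngr2 to Ifngr1 was 0.273 ± 0.0409 against 0.219 ± 0.0311, a log2 difference of 0.32, again with 4 of 5 IPF lungs above all of sham. The exception was IPF replicate 5, the lung with the high Ifngr1. Socs1 to Socs3 was 0.198 ± 0.0597 in IPF and 0.0966 ± 0.0287 in sham, a log2 difference of 1.02, and 4 of 5 IPF lungs lay above all of sham.

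**Figure D2:**
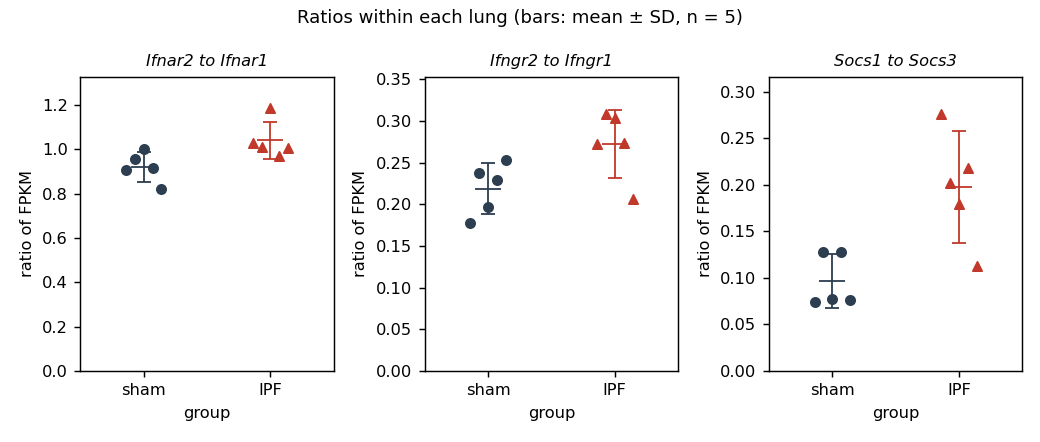
Ratio of FPKM within each lung for Ifnar2 to Ifnar1, Ifngr2 to Ifngr1 and Socs1 to Socs3, with 5 sham lungs (dark circles), 5 IPF lungs (red triangles) and bars for the mean ± SD. In each panel 4 of 5 IPF lungs lie above all sham lungs, and all vertical axes start at 0.

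The kinases did not pass. Jak1, which serves both interferon receptors (ENSMUSG00000028530, chr4:101152367-101265282, minus strand), was at 38.0, 34.5, 35.1, 40.2 and 38.7 FPKM in IPF and 38.3, 34.4, 35.7, 34.0 and 41.7 FPKM in sham. The sham lungs held both the highest and the lowest value. Its log2 fold change was 0.02 (interval -0.13 to 0.17, limma adjusted p = 0.914). Tyk2, the kinase of Ifnar1 (ENSMUSG00000032175, chr9:21104068-21131243, minus strand), was at 7.65, 7.04, 6.71, 8.36 and 6.77 FPKM in IPF and 8.05, 6.82, 7.20, 6.83 and 7.44 FPKM in sham. Its groups overlapped as well, with an interval of -0.16 to 0.18 (limma adjusted p = 0.983). A long antisense gene, 1700084C06Rik, shares 24326 bases with Tyk2 and had at most 1 read in a sample. Of the other 2 kinases of the family, Jak2, the partner of Ifngr2, was at 20.2 ± 1.67 FPKM in IPF and 19.3 ± 1.47 in sham (log2 fold change 0.07, limma adjusted p = 0.658). Jak3, the kinase of the common gamma chain in lymphocytes, was at 8.69 ± 0.846 and 9.97 ± 0.789 FPKM (-0.20, adjusted p = 0.194, the 1 kinase of the 2 with an unadjusted p under 0.05). All 4 kinase genes thus missed the threshold.

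Stat2, the STAT that works with Irf9 downstream of type I interferon (ENSMUSG00000040033, chr10:128270559-128292849, plus strand), was higher in IPF. Its level was 11.6, 12.8, 10.8, 12.4 and 14.1 FPKM in IPF and 9.50, 9.28, 9.84, 10.7 and 9.76 FPKM in sham. The groups nearly met, with IPF replicate 3 at 10.77 and sham replicate 4 at 10.71 FPKM. The log2 fold change was 0.32 (SE 0.07, 95% interval 0.16 to 0.49), a fold of 1.25, with a limma adjusted p of 0.0287. It missed the threshold without IPF replicate 2 or 4 or sham replicate 1, 2, 3 or 5, at limma adjusted p of 0.0554 to 0.0748. Stat2 also missed it without a variance trend (limma adjusted p = 0.0583) and with the replicate number as a block (0.0537).

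Irf9, which binds DNA in that complex, also rose. It was at 16.3, 15.9, 13.0, 16.0 and 20.3 FPKM in IPF and 10.3, 10.8, 11.8, 12.6 and 11.9 FPKM in sham, a log2 fold change of 0.49 (SE 0.10, limma adjusted p = 0.0189). For Stat2 and Irf9 alike IPF replicate 3 was the lowest and IPF replicate 5 the highest of the IPF lungs, and no IPF lung reached down to the sham range. Whether Irf9 differed from Stat2 in the size of the change was not tested. Of 6 genes in the list of other STATs and Irf9, Irf9 was higher and none was lower, with a median log2 fold change of 0.0092 and 1 gene, Stat3, below at an unadjusted p under 0.05. Stat3, which gp130 receptors use and Socs3 restrains, was at 22.0 ± 1.26 FPKM in IPF and 24.1 ± 1.02 in sham. The change of -0.14 in Stat3 did not pass (limma adjusted p = 0.186). All IPF lungs lay below all sham lungs, and the share of tested genes with that downward pattern was not counted. Stat6 was the nearest miss at 0.17 (limma adjusted p = 0.0573), and Stat4, Stat5a and Stat5b lay between -0.02 and 0.02.

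**Figure D3:**
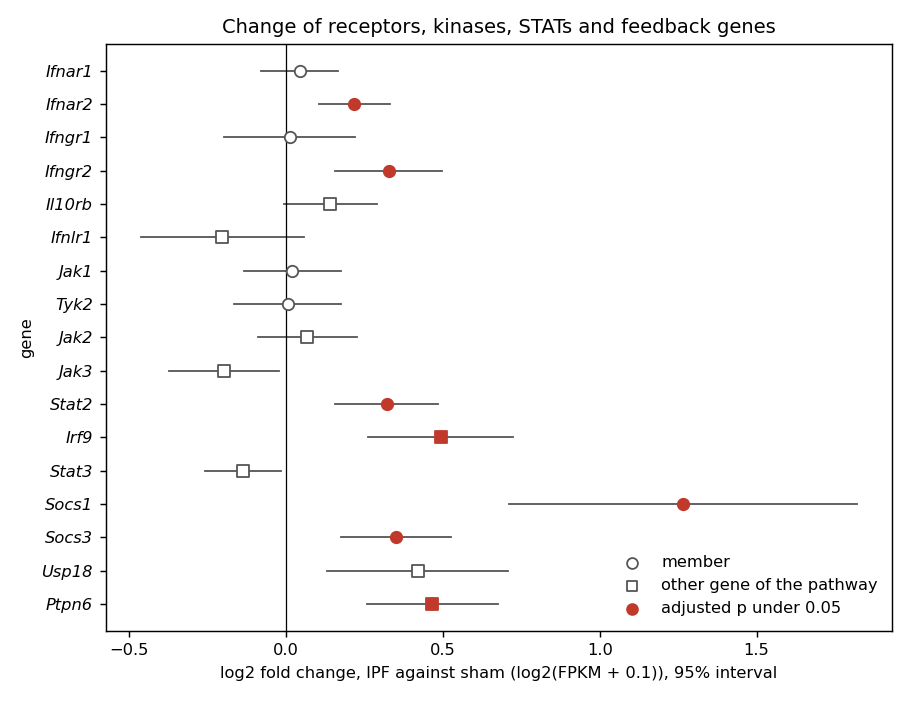
Log2 fold change of IPF against sham with its 95% interval for the 9 genes (circles) and 8 other genes of the pathway (squares), filled red where the limma adjusted p is under 0.05. Socs1 stands farthest from 0 at 1.26 and has the widest interval, 0.71 to 1.82, while Ifnar1, Ifngr1, Jak1 and Tyk2 sit within 0.05 of 0.

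Socs1, the inhibitor of JAK kinases at interferon receptors (ENSMUSG00000038037, chr16:10782240-10785536, minus strand), changed most of the 9. It was at 2.85, 2.17, 1.87, 2.15 and 1.22 FPKM in IPF and 0.626, 1.04, 0.643, 1.20 and 0.519 FPKM in sham. IPF replicate 5, the lung with the highest Stat2 and Irf9 of all, had the lowest Socs1 of its group, just above sham replicate 4. The mean rose from 0.804 ± 0.295 to 2.05 ± 0.586 FPKM, a log2 fold change of 1.26 (SE 0.25, 95% interval 0.71 to 1.82) and a fold of 2.40, with a limma adjusted p of 0.0142. It was also the gene with the fewest reads, 63 to 141 per IPF sample and 23 to 58 per sham sample. It passed in all 10 fits that left out 1 sample, at a log2 fold change of 1.14 to 1.43 and adjusted p of 0.00456 to 0.0411. The added constant weighs on so low a gene: with 1 in place of 0.1 the log2 fold change was 0.75 and still passed.

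Socs3, the inhibitor that binds gp130 receptors (ENSMUSG00000053113, chr11:117966079-117970047, minus strand), rose less. It was at 10.3, 10.7, 10.5, 9.85 and 10.9 FPKM in IPF and 8.48, 8.10, 8.38, 9.35 and 6.78 FPKM in sham. The IPF lungs were close together and all above sham. The log2 fold change was 0.35 (SE 0.08, 95% interval 0.18 to 0.52), a fold of 1.27, with a limma adjusted p of 0.0254. Without IPF replicate 1 or 2 or sham replicate 2 or 3 it missed the threshold, at limma adjusted p of 0.0533 to 0.0662. So it did without a variance trend (limma adjusted p = 0.0518) and without sham replicate 1 and IPF replicates 3 and 5 together (0.0986).

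Among 15 other inhibitors of the chain 1 was higher and none lower. Ptpn6, the phosphatase SHP-1 of blood cells, was at 15.3 ± 1.74 FPKM in IPF and 11.0 ± 1.22 in sham (log2 fold change 0.47, limma adjusted p = 0.0155). Usp18, which interferon induces and which blocks Ifnar2, was at 7.03, 7.78, 7.94, 6.69 and 11.0 FPKM in IPF and 5.20, 5.82, 7.21, 5.72 and 5.88 FPKM in sham. Only sham replicate 3 reached into the IPF range, and the change of 0.42 (interval 0.13 to 0.71) did not pass (limma adjusted p = 0.0956). The other members of the SOCS family, Cish, Socs2, Socs4, Socs5, Socs6 and Socs7, had log2 fold changes from -0.27 to 0.22 and none passed. Across the 15 inhibitors the median was 0.06, and 4 had an unadjusted p under 0.05 upward and 2 downward.

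**Figure D4:**
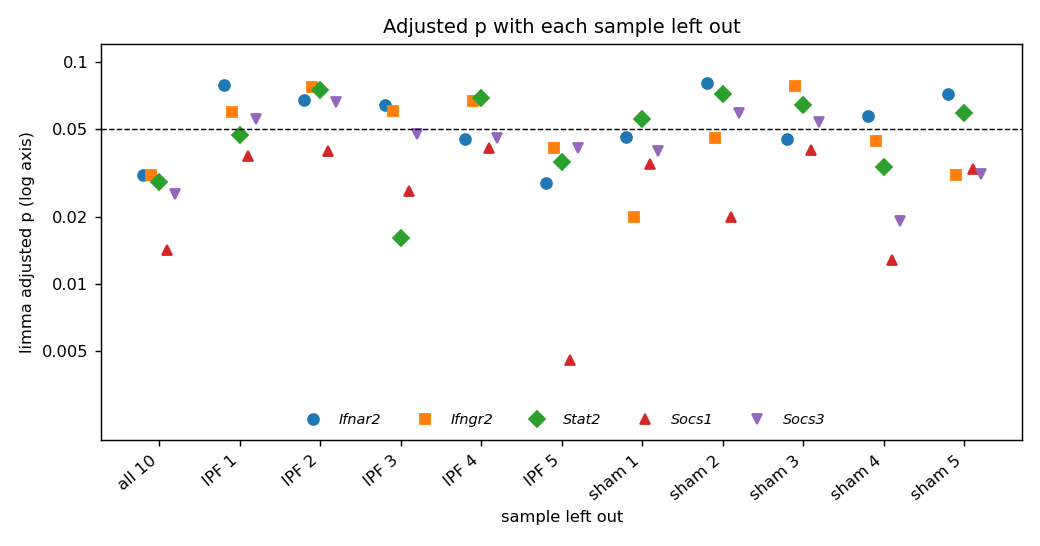
Limma adjusted p, on a log axis, of the 5 genes that passed with all 10 lungs and with each lung left out in turn, with a dashed line at 0.05. Socs1 stays under the line in every fit, between 0.00456 and 0.0411, and the other 4 cross it in 4 to 6 of the 10.

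The ligands of these receptors were near absent from the libraries. Of 21 interferon genes 15 had 0 reads in all 10 lungs, and the summed reads of all 21 were 4 to 6 per IPF lung and 0 to 11 per sham lung. A count of 0 allows up to 3 reads per library, and these limits cover counting error only. Ifnk was the single interferon gene above the filter on low values, which it passed through 2 sham lungs with 8 and 6 reads. The other 3 sham lungs had 0 reads and the IPF lungs 0 to 2, so no fold change is given. Ifng, the ligand of Ifngr1 and Ifngr2, had at most 4 reads in an IPF lung and at most 5 in a sham lung. A difference in interferon RNA was not detectable at this depth.

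Among genes that interferons induce, more than not were higher in IPF in both lists. Whether the lists separate a type I from a type II response was not tested, so their counts do not show separate responses. Of 12 type I targets 9 were higher and none lower, with a median log2 fold change of 0.84. They were Isg15, the ubiquitin-like modifier (1.26, limma adjusted p = 0.00373), Oas2, a sensor of double-stranded RNA (1.26, 0.00874), Mx1 (1.06, 0.0118), Rtp4 (1.06, 0.00179), Ifi44 (0.97, 0.0115), Ifit1 (0.86, 0.0141), Irf7 (0.82, 0.0462), Cmpk2 (0.73, 0.00189) and Xaf1 (0.45, 0.0343). Isg15 was at 23.0, 31.3, 24.8, 25.1 and 38.4 FPKM in IPF and 7.38, 14.1, 14.6, 12.5 and 11.4 FPKM in sham, so the groups were far apart. Ifit3, Mx2 and Rsad2 were positive in fitted value and did not pass (limma adjusted p of 0.391, 0.0772 and 0.0524). Of 11 type II targets 6 were higher and none lower, with a median of 0.50: Gbp4 (1.02, limma adjusted p = 0.000984) and Gbp2 (0.56, 0.0173), which are guanylate-binding proteins, the chemokine Cxcl10 (0.99, 0.0402), the antigen-processing genes Psmb9 (0.56, 0.0226) and Tap1 (0.50, 0.00873), and the transcription factor Irf1 (0.36, 0.00344). The other 5, Irf8, Ciita, Cxcl9, Cd274 and Nlrc5, did not pass (limma adjusted p of 0.108, 0.225, 0.219, 0.256 and 0.341). No tested gene of either list had a fitted value below 0. Several of these genes, and Socs1, belong to terms that the study found enriched in these same samples, so their counts are no independent evidence of direction.

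The list of gp130 cytokines and receptors held 11 genes, among them Csf3 and its receptor Csf3r, which signal without gp130. Of these 9 could be tested, and Lif alone passed, at 0.905, 1.05, 1.43, 1.19 and 0.637 FPKM in IPF and 0.390, 0.641, 0.243, 0.511 and 0.528 FPKM in sham (log2 fold change 1.03, SE 0.25, limma adjusted p = 0.0353). The lowest IPF lung and the highest sham lung nearly coincided for Lif. Il6st, which encodes gp130 itself, was above all sham lungs in every IPF lung but missed the threshold at 0.22 (limma adjusted p = 0.0603). Of 7 genes known as Stat3 targets, Bcl3 (0.68, limma adjusted p = 0.0155), Pim1 (0.53, 0.0209) and Junb (0.31, 0.0479) were higher. Cebpd (-0.88, limma adjusted p = 0.0319), an acute-phase transcription factor, and Lcn2 (-0.73, 0.0291), an iron-binding acute-phase protein, were lower. Over all 87 other genes of the pathway 65 were tested, 21 were higher and 2 lower, with a median of 0.27, and the sum of 23 fell to 15 without IPF replicate 1.

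**Figure D5:**
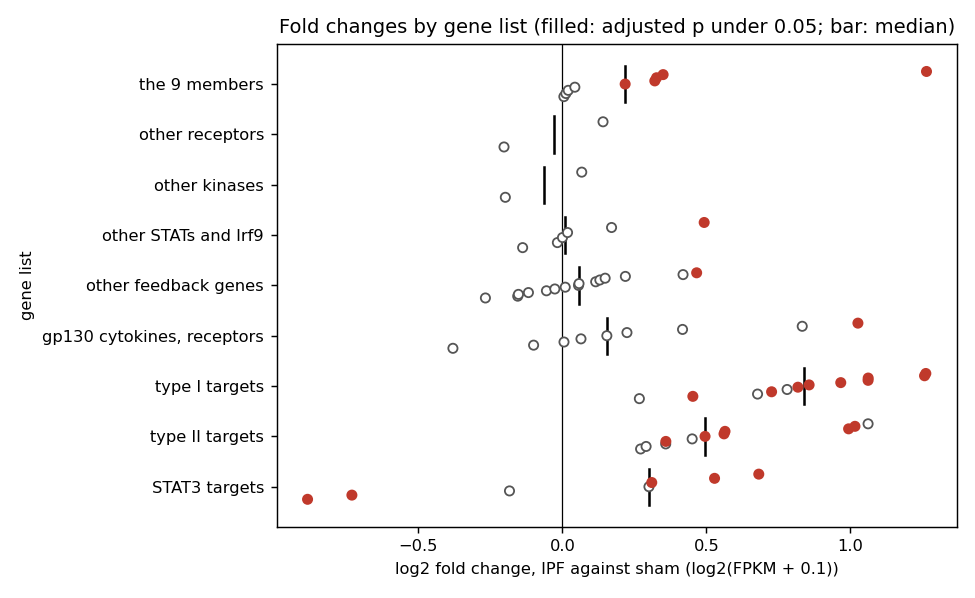
Log2 fold change of IPF against sham for each tested gene of the 9 and of 8 other lists of the pathway, filled where the limma adjusted p is under 0.05, with a bar at each list's median. Type I targets (9 of 12 filled) and type II targets (6 of 11 filled) lie to the right of 0 throughout, and Stat3 targets fall on both sides.

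Markers of NK and B cells were higher in IPF for the most part, and those of T cells, monocytes, macrophages and neutrophils mostly did not pass. The summed FPKM in IPF and sham was 12.1 to 19.2 and 3.96 to 9.77 for 6 NK cell markers (4 higher), 30.7 to 45.7 and 16.5 to 27.2 for 4 B cell markers (4 higher), and 10.7 to 14.1 and 7.23 to 11.0 for 6 T cell markers (1 higher). For NK and B cells the groups did not overlap. Monocyte and macrophage markers were at 224.8 to 382.5 in IPF and 203.5 to 342.3 in sham, sums made up mostly of Chil3 (245 and 217 FPKM on average). The 2 of these 7 that were higher were Ccr2 (log2 fold change 0.66, limma adjusted p = 0.0244) and Ly6c2 (1.01, 0.00143). At an unadjusted p under 0.05, 4 of these 7 and 4 of the 6 T cell markers were higher, and none was lower. The 6 neutrophil markers ran from 52.6 to 300.4 in IPF and from 15.2 to 72.4 in sham. Of these, 5 had an unadjusted p under 0.05 and none passed the adjusted threshold of limma. Endothelial markers were at 1040 to 1178 in IPF and 907.9 to 948.3 in sham (1 of 5 higher, Cldn5), while fibroblast sums overlapped (1 of 4 higher). Of the alveolar, airway, smooth muscle, adipocyte and heart muscle lists no tested gene passed limma's threshold and 3 had an unadjusted p under 0.05, and 1 of 7 immediate early genes passed. No defining immune marker was at 0 in either group. In whole lung, more cells of a type and more RNA per cell cannot be told apart, and the part of these markers in the rise of Socs1, Socs3, Stat2, Ifnar2 and Ifngr2 was not tested.

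Across the 10 lungs, deviations from the group means were set side by side as a description, on log2(FPKM + 0.1). Among the 9 genes the closest pairs were Ifngr1 with Stat2 (Pearson r = 0.67), Jak1 with Tyk2 (0.65) and Ifnar1 with Jak1 (0.61), and the most opposed was Jak1 with Socs3 (-0.72). The 2 chains of each receptor did not vary together, at -0.24 for Ifnar1 with Ifnar2 and -0.21 for Ifngr1 with Ifngr2. Socs1 and Socs3 were at 0.37. All these values share the 10 libraries and their depths.

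Among 13444 genes that averaged 1 FPKM or more, the 3 most like each of the 9 in these deviations were as follows, with Pearson r over the 10 lungs. As the highest of 13444 values over 10 lungs, these r run high by selection, and none was tested. Ifngr1 was closest to Zkscan17 (0.988), Fam107a (0.980) and Tsc22d3 (0.980), and the r with Tsc22d3 was 0.932 without the 2 lungs farthest from the median of Ifngr1. Ifnar1 was closest to Zfp933 (0.921), Zfp282 (0.915) and Shroom4 (0.909), at 0.787 to 0.853 without the 2 farthest lungs. Ifnar2 was closest to Sdr42e1 (0.924), Eml2 (0.884) and Rab3d (0.883), at 0.805 to 0.905 without the 2 farthest lungs. Ifngr2 was closest to Rps25-ps1 (0.982), BC002163 (0.970) and Mrps23 (0.967). Jak1 was closest to Opa1 (0.966), Naip2 (0.963) and Tirap (0.960), and Tyk2 to Itga2 (0.960), Dcbld2 (0.946) and Tti1 (0.940). Stat2 was closest to Gtf2e2 (0.965), Gm5529 (0.950) and Aebp2 (0.942). Socs1 was closest to Nab2 (0.946), Gm10704 (0.939) and Slc7a10 (0.935), each still at 0.899 or more without the 2 farthest lungs. Socs3 was closest to Gm15501 (0.945), 4732496C06Rik (0.942) and Acp6 (0.941), but the r with Gm15501 fell to 0.511 without the 2 farthest lungs and so rested on them. None of the 9 had another of the 9 among its 3.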

How the data were processed

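Whole-lung RNA of 5 IPF and 5 sham samples was analysed. The authors deposited 1 table of FPKM values per gene. The study's methods name a KAPA mRNA HyperPrep library, Fastp, HISAT2 on GRCm39 and StringTie, whereas the labels name an NEBNext Ultra kit and the submitters' processing notes list Bowtie 0.12.2 with hg38, GRCm38 and mm10. Gene positions in the table are those of GRCm38. Whether counting used strand is not given in the sources used here. Reads per gene were recovered from FPKM times gene length, and 100% of values were whole within 0.02, at 15483046 to 19026843 reads per sample.

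Groups came from sample titles. IPF was compared with sham by limma 3.58.1 in R 4.3.3 (eBayes with a variance trend) on log2(FPKM + 0.1), for the 20448 genes that averaged 0.1 FPKM or more, with Benjamini-Hochberg adjustment over all of them and a threshold of 0.05. The scripts were tested on simulated data. The 9 genes, the pathway and marker lists and the alternatives were chosen with earlier results of these data known. All 9 genes are named, as are pathway genes that passed, the gene with the smallest adjusted p of a list with none, Irf9, Jak2, Stat3 and Usp18, and the 3 genes most like each of the 9. A further pathway gene is not reported here and was left out of the lists and their counts. Isg15 and Lif per-sample values, and other genes given without passing, were chosen after their values were seen. Alternatives were other pseudocounts (1 and 0.01), no filter or a filter of 1 FPKM, median-of-ratios scaling, quantile normalization, a replicate block, no variance trend, array weights, voom on recovered reads, each sample left out, and, added after seeing the data, sham replicate 1 with IPF replicates 3 and 5 left out. Same-numbered samples deviated together at r of -0.0204 to 0.0953, so the numbers were not taken to pair samples.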

Additional observations from a re-analysis of the deposited data

Results flagged for a closer look

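Dixon's test at 5 samples (critical value 0.71) was applied to the IPF and the sham values of the 9 genes, of Irf9, Jak2, Stat3 and Usp18, and of the pathway genes that passed, 70 groups in all, and chance alone flags about 1 in 20 groups. It marked 7 values, in 3 lungs, that lay far from the others of their group. Ifngr1 was at 115.3 FPKM in IPF replicate 5, where the next IPF lung was at 86.2. The same lung stood apart for Irf7 (14.4 FPKM, next 7.48), Rtp4 (33.8, next 22.5), Ifi44 (6.94, next 4.06) and Cebpd (32.3, next 18.4). Outside those 70 groups, among genes looked at afterwards, this lung was also far from the other IPF lungs for Ifit3 (77.7 FPKM, next 47.3), Rsad2 (3.65, next 1.98), Tsc22d3 (156, next 78.2), Fkbp5 (9.11, next 2.08) and Zbtb16 (24.7, next 3.81), and on the low side for Ciita (1.64, next 3.24). Irf7 was also high in sham replicate 3, at 6.07 FPKM with the next sham lung at 4.50. Ptpn6 was at 18.3 FPKM in IPF replicate 4, with the next at 14.8. Of the 9 genes only Ifngr1 had such a lung.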

How the results depend on the processing

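Socs1 passed limma's threshold in every alternative, at a log2 fold change of 0.75 to 1.44. All 5 genes passed with pseudocounts of 1 and 0.01, without a filter, with a filter of 1 FPKM, with median-of-ratios scaling and with array weights. With quantile normalization 4 passed, since Ifnar2 fell to 0.19 (limma adjusted p = 0.0709), and with voom on recovered reads 4 passed, with Ifnar2 at 0.21 (0.0621). Without a variance trend 1 passed: Ifnar2 at 0.22 (limma adjusted p = 0.0739), Ifngr2 at 0.33 (0.0670), Stat2 at 0.32 (0.0583) and Socs3 at 0.35 (0.0518) did not. With the replicate block, which pairs lungs by number alone, 3 passed (Ifnar2, Ifngr2 and Socs1), with Stat2 at 0.32 (limma adjusted p = 0.0537) and Socs3 at 0.35 (0.0722), and 18 other pathway genes passed in place of 23. Without sham replicate 1 and IPF replicates 3 and 5, an alternative chosen after seeing the data, 3 passed, with Ifnar2 at 0.21 (limma adjusted p = 0.0806) and Socs3 at 0.34 (0.0986).

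With 1 lung left out, 1 to 5 genes and 15 to 26 other pathway genes passed, at log2 fold changes of 0.20 to 0.24 for Ifnar2, 0.26 to 0.36 for Ifngr2 (0.25 in the added alternative), 0.27 to 0.37 for Stat2, 1.14 to 1.43 for Socs1 and 0.28 to 0.40 for Socs3. The fits gave 0.01 to 0.07 for Ifnar1, -0.082 to 0.050 for Ifngr1, -0.0071 to 0.067 for Jak1 and -0.044 to 0.042 for Tyk2 (0.12 in the added alternative), so the last 3 changed sign. They also turned negative elsewhere: Tyk2 at -0.0010 with median-of-ratios scaling, Ifngr1 at -0.049, Jak1 at -0.033 and Tyk2 at -0.021 with quantile normalization, and Ifngr1 at -0.025 with array weights and -0.068 in the added alternative. Except for the added and left-out samples the cause of these moves was not tested. Depth limits the interferon ligands, and the 4 modest changes lie close to the threshold.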
